A study of Mus musculus with 6 samples.

Results

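Cadherins and protocadherins are membrane proteins with repeated extracellular cadherin domains, and they were examined here in 2 cell populations of young mouse muscle. The members were all genes of the array whose symbol begins with Cdh and a number or with Pcdh, together with the giant cadherins Fat1 to Fat4, Dchs1 and Celsr1 to Celsr3. A total of 64 members were found among 18193 named genes, on 111 probe sets, and 30 of the 64 passed the filter on low values and were tested. A gene passed when its log2 intensity lay above 4 on at least 3 of the 6 arrays. Where a gene had several probe sets, the brightest on average over the arrays stood for the gene.

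Both populations came from enzymatically digested hindlimb muscle of C57 black 6 mice, 7 to 9 days old, with no genetic change or drug named in the labels. PICs, which are known as interstitial cells that express PW1, and satellite cells, the resident muscle stem cells, were parted by flow cytometry on CD34 and Sca1. Each population has 3 arrays described as biological replicates, and the labels do not say how many mice went into each. Since the RNA comes from many sorted cells, fewer cells of a type and less RNA per cell cannot be told apart.

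Classical cadherins bind the same cadherin on a neighbouring cell and hold the actin skeleton through catenins inside the cell. Protocadherins bind more weakly, most of them do not bind catenins, and those of the gene cluster give neurons a surface identity. Fat and Dachsous are giant cadherins that bind each other across cell contacts, and Celsr proteins act in planar cell polarity, so the family serves both adhesion and signalling between cells.

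All 10 satellite cell markers were called higher in satellite cells, and 8 of 9 interstitial markers were called higher in PICs. The exception was Peg3, which encodes PW1 and differed by 0.19. Of the 8, Clec3b passed the filter through its PIC arrays alone and so had to differ. Cd34, also among them, encodes a protein that the sort used. Satellite marker intensities summed to between 4795 and 6508 on PIC arrays and to between 43824 and 49565 on satellite arrays. Interstitial marker intensities summed to between 107499 and 114831 on PIC arrays and to between 36379 and 45431 on satellite arrays. Peg3, which was not called, was the brightest of them on the satellite arrays, at log2 14.13, 14.17 and 14.27, and weighs most in the sums there. Correlations across genes were 0.956 to 0.986 within a population and 0.80 to 0.85 between populations, and every array had a median intensity of 10.

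Most cadherin-family genes that differed were higher in PICs. Of the 30 tested members, 16 were called, where 29.8% of all 10855 tested genes were called, a call being an adjusted p under 0.05 with a log2 difference of at least 1. PICs were the higher population for 14 of them, against 16.7% of all tested genes called in that direction. Satellite cells were the higher population for 2, Cdh15 and Cdh13, against 13.0% of all tested genes. The arrays of the 2 populations did not overlap for 21 of the 30 tested members, 19 with PICs above and 2 with satellite cells above. Over all tested genes 64.6% were without overlap in either direction, so the share of members without overlap is near that of all genes. For all genes the 2 directions were not counted apart. The median log2 difference, PICs minus satellite cells, was 0.93 over the tested members and -0.04 over all tested genes. Cdh19, Pcdh20 and Pcdhb12 passed the filter through their PIC arrays alone and so had to differ, which means that the counts include a choice in favour of PICs. Among the called members, Pcdhb3 and Pcdhb19 also needed their PIC arrays to pass, since most of their satellite arrays lay under 4.

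**Figure D1:**
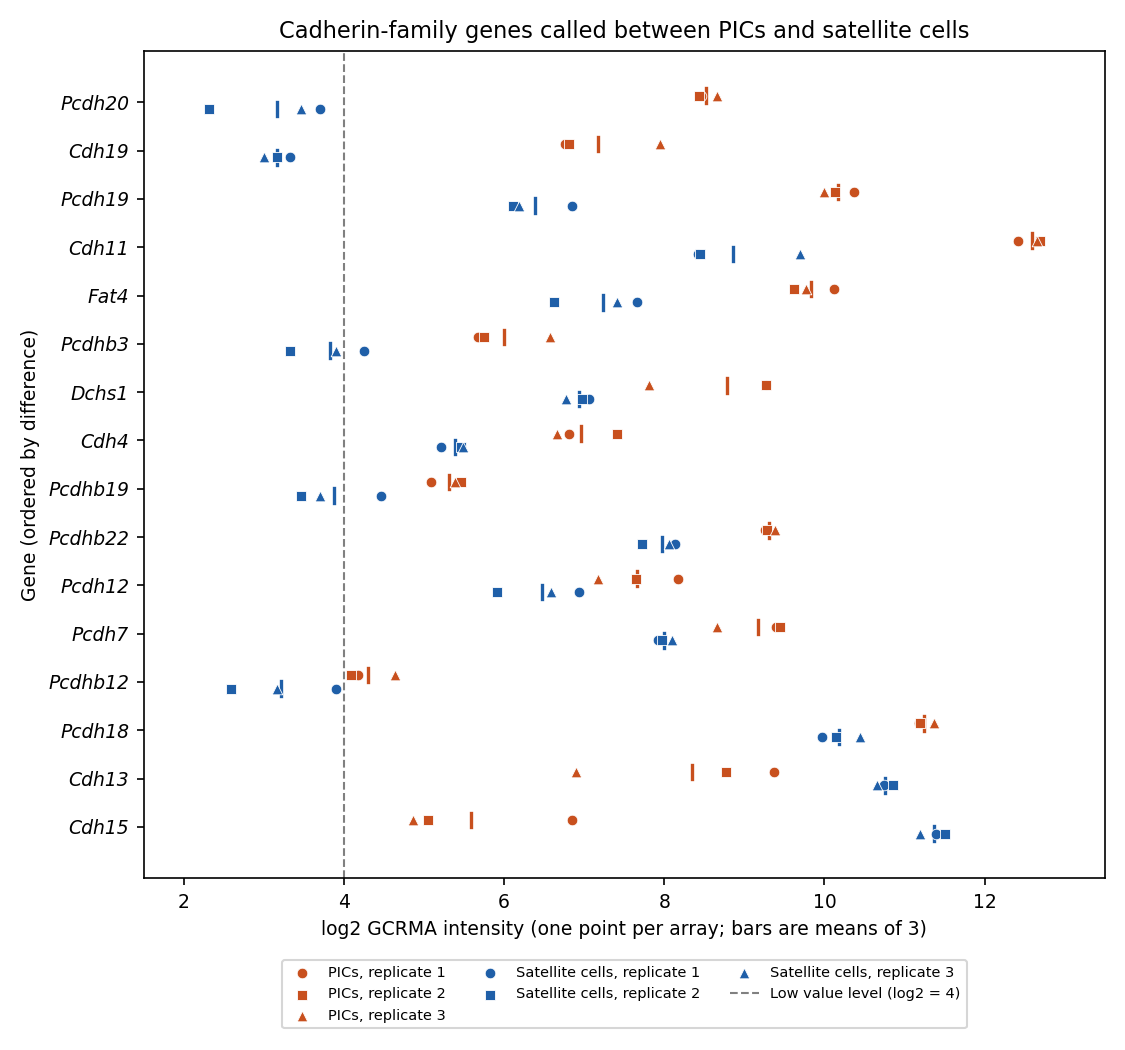
Log2 intensity of the 16 called members on each of the 6 arrays, 1 gene per row ordered by difference, with PICs in orange, satellite cells in blue, bars at the means of 3 and a dashed line at the low value level of 4. Cdh15 and Cdh13 have satellite arrays above all PIC arrays, and the other 14 genes have PIC arrays above all satellite arrays.

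The stretches before the start sites of Cdh15, Pcdh20 and Pcdh19 are shown because these members had the largest differences in each direction among the 10 tested members with a promoter entry in RefSeq. Each runs 5′ to 3′ on the gene's strand over 250 bases that end just before the start site in GRCm38.p6. Capitals mark the E-box CANNTG, searched on both strands, which it reads alike. The E-box is the letter pattern bound by muscle factors of the MyoD family and by repressors of the Twist, Snail and Zeb families. Cdh15 lies on the plus strand (chr8:122848124-122848373), Pcdh20 on the minus strand (chr14:88471397-88471646) and Pcdh19 on the minus strand (chrX:133688994-133689243).
Cdh15: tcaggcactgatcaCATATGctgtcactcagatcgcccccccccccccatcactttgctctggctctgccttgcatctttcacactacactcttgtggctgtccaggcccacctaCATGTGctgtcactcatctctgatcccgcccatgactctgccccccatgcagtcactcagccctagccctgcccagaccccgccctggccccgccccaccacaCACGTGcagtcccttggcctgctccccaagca
Pcdh20: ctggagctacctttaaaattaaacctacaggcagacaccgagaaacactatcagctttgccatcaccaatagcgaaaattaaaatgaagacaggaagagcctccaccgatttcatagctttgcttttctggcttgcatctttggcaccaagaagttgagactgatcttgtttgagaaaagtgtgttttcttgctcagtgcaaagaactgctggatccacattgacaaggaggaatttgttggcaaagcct
Pcdh19: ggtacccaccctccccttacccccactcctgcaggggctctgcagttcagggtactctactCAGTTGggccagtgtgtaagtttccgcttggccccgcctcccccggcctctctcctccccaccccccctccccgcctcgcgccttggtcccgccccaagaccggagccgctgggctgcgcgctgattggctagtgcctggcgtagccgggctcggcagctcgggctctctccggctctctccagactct
The Cdh15 window held 3 matches. The farthest, CATATG, starts 236 bases before the start site, the middle one, CATGTG, 135 bases before it and the nearest, CACGTG, 32 bases before it. The Pcdh19 window held 1 match, CAGTTG, which starts 189 bases before it, and the Pcdh20 window held none. A match was present in 4 of the 10 tested members with an entry and in 66.2% of 32851 windows of the same length, so these letters are common and a match describes the sequence only. The narrower forms CAGCTG and CAGGTG were absent from the windows shown and present in 13% and 17.2% of all windows.

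Among the classical type I cadherins, which anchor catenins, 1 of the 3 tested members was higher in satellite cells, 1 was higher in PICs and 1 was not called. Cdh15 encodes M-cadherin, known at the contact of satellite cell and muscle fibre. Its log2 intensity was 11.40, 11.50 and 11.20 on the satellite arrays and 6.85, 5.04 and 4.86 on the PIC arrays. All satellite arrays lay far above all PIC arrays, and among PICs the array of replicate 1 was the highest. The difference was -5.78 (95% interval -7.02 to -4.54, adjusted p = 0.000219), a 55.1-fold higher level in satellite cells, and -6.41 without PIC replicate 1. The satellite marker Pax7 was also highest on that PIC array, at 7.88 against 6.44 and 6.34, and its part in the Cdh15 values was not tested.

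Cdh4, which encodes R-cadherin, was higher in PICs. The log2 intensities were 6.81, 7.41 and 6.66 in PICs and 5.21, 5.46 and 5.49 in satellite cells. The lowest PIC array was above the highest satellite array, and the difference was 1.57 (1.05 to 2.09, adjusted p = 0.00114). Its other kept probe set differed by 1.67 and was called too.

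Cdh2, which encodes N-cadherin, was close to equal in both populations. In log2 units its arrays read 8.85, 8.65 and 8.84 in PICs and 8.80, 8.86 and 8.86 in satellite cells. The arrays overlapped, and the difference was -0.06 (-0.32 to 0.21, adjusted p = 0.679), an interval that lies within the size needed for a call in both directions. A second, weaker probe set of Cdh2 put all satellite arrays above all PIC arrays, with a difference of -0.50 (adjusted p = 0.0953 in a fit over all kept probe sets). Cdh1 and Cdh3, the epithelial E-cadherin and P-cadherin, did not exceed 3.00 on any array. Of the epithelial markers, 8 of 10 were at low values on all arrays, while Epcam and Krt19 were called higher in PICs, Krt19 having passed the filter through its PIC arrays alone.

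Of the type II cadherins, which share the fold of the classical group with a different binding motif, 3 of 11 were tested. PICs were higher for Cdh11 and Cdh19, and Cdh5 was not called. Cdh11 encodes OB-cadherin, known from mesenchymal cells and fibroblasts. Its log2 intensity was 12.42, 12.69 and 12.65 in PICs and 8.42, 8.44 and 9.70 in satellite cells. The PIC arrays were close together and far above the satellite arrays, among which the array of replicate 3 was highest. The difference was 3.73 (2.88 to 4.59, adjusted p = 0.000267), a 13.3-fold higher level in PICs, and the second probe set differed by 4.02. Pdgfra, an interstitial marker, was highest on the same satellite array, at 10.07 against 9.00 and 8.81. What part the interstitial markers have in the satellite values of Cdh11 was not tested.

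Cdh19, a cadherin known from the Schwann cell lineage, exceeded 4 on PIC arrays alone. Log2 intensities of Cdh19 were 6.75, 6.81 and 7.95 in PICs and 3.32, 3.17 and 3.00 in satellite cells. No satellite array exceeded the low value level of 4, so the level was at least 9.00-fold higher in PICs (adjusted p = 0.000171). PIC replicate 3 was the highest array. Of 8 Schwann cell and glial markers on the array, 6 were tested and 1, S100b, was called higher in PICs, with a difference of 1.90. The glial markers Foxd3 and Gfra3 stayed at or below 2.32 on every array. The summed intensity of the 8 markers was 26632, 16246 and 11176 in PICs and 23025, 13404 and 15728 in satellite cells. Pmp22 and Mbp were the brightest of the 8 on every array, so the sum mostly follows them and says little of Sox10, S100b and Erbb3. By mean, Sox10 and Erbb3 were also higher in PICs, by 1.22 and 0.78, and were not called. The remaining tested markers, Pmp22, Mbp and Cnp, differed by 0.08, -0.29 and -0.34 and were not called either. The part of glial RNA in the Cdh19 values was not tested.

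Cdh13, which encodes T-cadherin, was the second member called higher in satellite cells. T-cadherin is tied to the membrane by a lipid anchor, has no cytoplasmic tail and binds adiponectin. Its log2 intensity was 10.74, 10.85 and 10.66 in satellite cells and 9.36, 8.76 and 6.89 in PICs. The satellite arrays were nearly equal, the PIC arrays were spread widely, and the populations did not overlap. The difference was -2.41 (-3.85 to -0.97, adjusted p = 0.0138), a 5.31-fold higher level in satellite cells, and -1.69 without PIC replicate 3, the lowest array. All 3 kept probe sets were called in this direction, with differences from -2.64 to -1.89. The call was lost when unfiltered genes were tested (adjusted p = 0.0751) and when both arrays numbered 2 were left out (adjusted p = 0.0957). The other 4 members outside the type I and type II groups, Cdh16, Cdh17, Cdh23 and Cdh26, did not exceed 2.58.

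Cdh5 encodes VE-cadherin, the cadherin of endothelial junctions. Cdh5 had log2 intensities of 11.07, 10.72 and 8.50 in PICs and 10.46, 9.73 and 9.36 in satellite cells. The arrays overlapped, PIC replicate 3 was the lowest of all 6, and the difference was 0.24 (-1.42 to 1.91, adjusted p = 0.788). Without PIC replicate 3 the difference was 1.04 (adjusted p = 0.0481) and would have been called. The other 8 type II members, Cdh6 to Cdh10, Cdh18, Cdh20 and Cdh22, did not exceed 3.00 on any array.

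**Figure D2:**
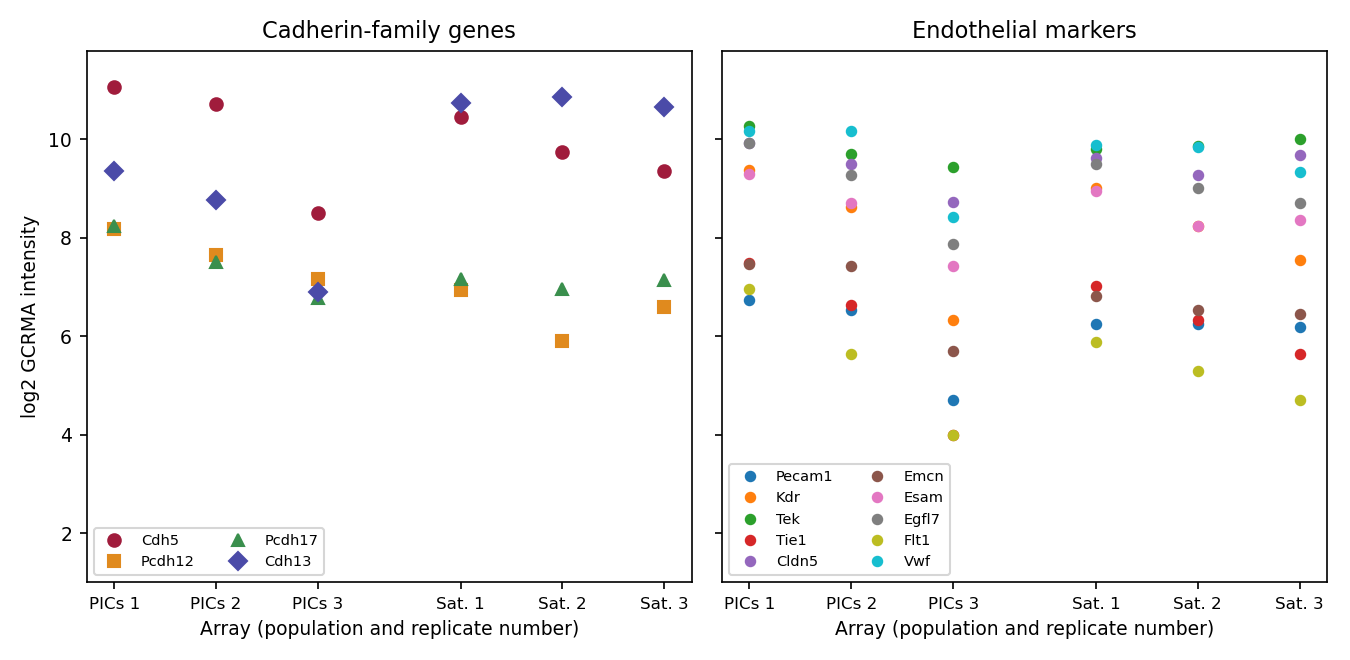
Log2 intensity on each array of Cdh5, Pcdh12, Pcdh17 and Cdh13 (left) and of 10 endothelial markers (right), with 1 point per gene and array. PIC replicate 3 has the lowest PIC value for each of the 4 genes, and Tie1 and Flt1 stand at 4 there.

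Endothelial markers were set beside these genes. All 10 were tested and 0 were called (limma; also 0 at an unadjusted p under 0.05). Their summed intensity was 6212, 4555 and 2057 in PICs and 4722, 3885 and 3668 in satellite cells. On the PIC arrays the values of Cdh5, Cdh13, Pcdh12 and Pcdh17 stood in the same order as this sum, highest in replicate 1 and lowest in replicate 3. On the satellite arrays only Cdh5 followed the order of the sum, by the probe sets that stood for the genes. Weaker kept probe sets of Cdh13 (10.04, 9.93 and 9.56) and Pcdh17 (6.15, 5.21 and 5.04) followed it there too. The remaining kept probe set of Cdh13 followed the order in neither population. Among the other tested members, Cdh15, Pcdh9, Pcdh19, Pcdhb16, Pcdhb21 and Pcdhgc4 also fell from replicate 1 to replicate 3 on the PIC arrays. The summed satellite cell, glial, pericyte and blood cell markers did so too. The order on the PIC arrays is therefore not particular to endothelial markers or to the genes set beside them. The part of endothelial RNA in Cdh5, Cdh13, Pcdh12 and Pcdh17 was not tested.

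Among the delta-1 protocadherins, named for conserved motifs in their tails, 2 of 4 were tested and 1 was called higher in PICs. Pcdh7 had log2 intensities of 9.39, 9.45 and 8.66 in PICs and 7.92, 7.98 and 8.10 in satellite cells. All PIC arrays were higher, with replicate 3 nearest to the satellite cells. The difference was 1.17 (0.62 to 1.71, adjusted p = 0.0049). The other kept probe set differed by 0.92, below the size for a call, and the call was lost without both arrays numbered 1 or both numbered 2 (adjusted p = 0.0563 and 0.0751).

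Pcdh9 had log2 intensities of 6.02, 5.61 and 5.55 in PICs and 5.36, 4.64 and 5.25 in satellite cells. The arrays did not overlap, but the difference of 0.65 (0.09 to 1.20, adjusted p = 0.0511) was not called. Pcdh1 was above 4 on 1 array, at 4.52. Pcdh11x did not exceed 3.32 on the probe set that stood for it or 3.58 on its other probe set.

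The delta-2 protocadherins bind regulators of actin with their tails. Of 5 members 3 were tested, and 2 were called higher in PICs. Pcdh19, an X-linked gene known for its role in epilepsy and for joining N-cadherin in adhesion, had log2 intensities of 10.37, 10.13 and 9.99 in PICs and 6.85, 6.11 and 6.19 in satellite cells. The populations were far apart, and the arrays within each were close. The difference was 3.78 (3.24 to 4.33, adjusted p = 7.6e-05), a 13.8-fold higher level in PICs, and the second probe set gave 3.79. The sequence shown for Pcdh19 comes from just before this gene.

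Pcdh18 was high in both populations, with log2 intensities of 11.19, 11.19 and 11.37 in PICs and 9.97, 10.14 and 10.45 in satellite cells. All PIC arrays were higher, and the difference was 1.06 (0.69 to 1.43, adjusted p = 0.00137). Its other kept probe sets differed by 0.80 and 1.15 in the same direction, with overlapping arrays, and were not called (adjusted p = 0.0903 and 0.111). The call was lost without satellite replicate 1, where the difference was 0.95, and without both arrays numbered 1, where it was 0.99, each just under the size required.

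Pcdh17 had log2 intensities of 8.25, 7.51 and 6.77 in PICs and 7.16, 6.95 and 7.14 in satellite cells. The arrays overlapped, and the difference of 0.42 (-0.43 to 1.28, adjusted p = 0.348) was not called. Pcdh10 was above 4 on 2 PIC arrays, with 4, 4.91 and 5.49 in PICs and 3.17, 3.32 and 3.46 in satellite cells, and so was not tested. Pcdh8 did not exceed 3.46.

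Of the other protocadherins with a gene of their own, Pcdh20 and Pcdh12 were called higher in PICs. Pcdh15 did not exceed 3.00 on the probe set that stood for it or 3.32 on any other. Pcdh20 had log2 intensities of 8.46, 8.44 and 8.66 in PICs and 3.70, 2.32 and 3.46 in satellite cells. The PIC arrays were nearly equal and no satellite array reached the low value level, so the level was at least 23.0-fold higher in PICs (adjusted p = 9.46e-05). A weaker probe set of Pcdh20, with 5.43, 5.32 and 5 in PICs and no satellite array above 3.17, was called too.

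Pcdh12 encodes a protocadherin known from endothelial cells. Its log2 intensity was 8.17, 7.64 and 7.17 in PICs and 6.93, 5.91 and 6.58 in satellite cells. PIC replicate 3 lay just above satellite replicate 1, and the difference was 1.19 (0.36 to 2.02, adjusted p = 0.0249). The call was lost when no filter was applied (adjusted p = 0.105). It was also lost without PIC replicate 1 (0.93, adjusted p = 0.0688), PIC replicate 2 (1.20, adjusted p = 0.0703), satellite replicate 2 (0.91, adjusted p = 0.0692) or satellite replicate 3 (1.24, adjusted p = 0.0544), and without both arrays numbered 2 (0.91, adjusted p = 0.163).

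Among the giant cadherins, 4 of 8 were tested and 2 were called, Fat4 and Dchs1, both higher in PICs. Fat4 and Dchs1 are known as a receptor and ligand pair that bind across neighbouring cells. Fat4 had log2 intensities of 10.11, 9.62 and 9.76 in PICs and 7.67, 6.63 and 7.41 in satellite cells. The PIC arrays were all higher, and the difference was 2.60 (1.90 to 3.29, adjusted p = 0.000478), a 6.05-fold higher level. The second probe set differed by 2.83.

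Dchs1 had log2 intensities of 9.26, 9.27 and 7.81 in PICs and 7.07, 6.98 and 6.77 in satellite cells. PIC replicate 3 was lower than the other PIC arrays but above all satellite arrays. The difference was 1.84 (0.88 to 2.81, adjusted p = 0.00806). The call was lost without both arrays numbered 1 (adjusted p = 0.0624) and without both numbered 2 (adjusted p = 0.0915), and the adjusted p without the filter was 0.050, just past the threshold.

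Fat1, known for a role in muscle shape, was high in both populations at 11.58, 11.57 and 11.72 in PICs and 11.46, 11.35 and 11.53 in satellite cells. The difference was 0.18 (-0.09 to 0.44, adjusted p = 0.215), well within the size required for a call. Celsr2, a planar polarity cadherin, was near the low value level at 4.52, 3.91 and 4.91 in PICs and 4.17, 4.70 and 5.46 in satellite cells. Its arrays overlapped, with a difference of -0.33 (-1.26 to 0.60, adjusted p = 0.499). Fat2, Fat3, Celsr1 and Celsr3 did not exceed 3.70.

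**Figure D3:**
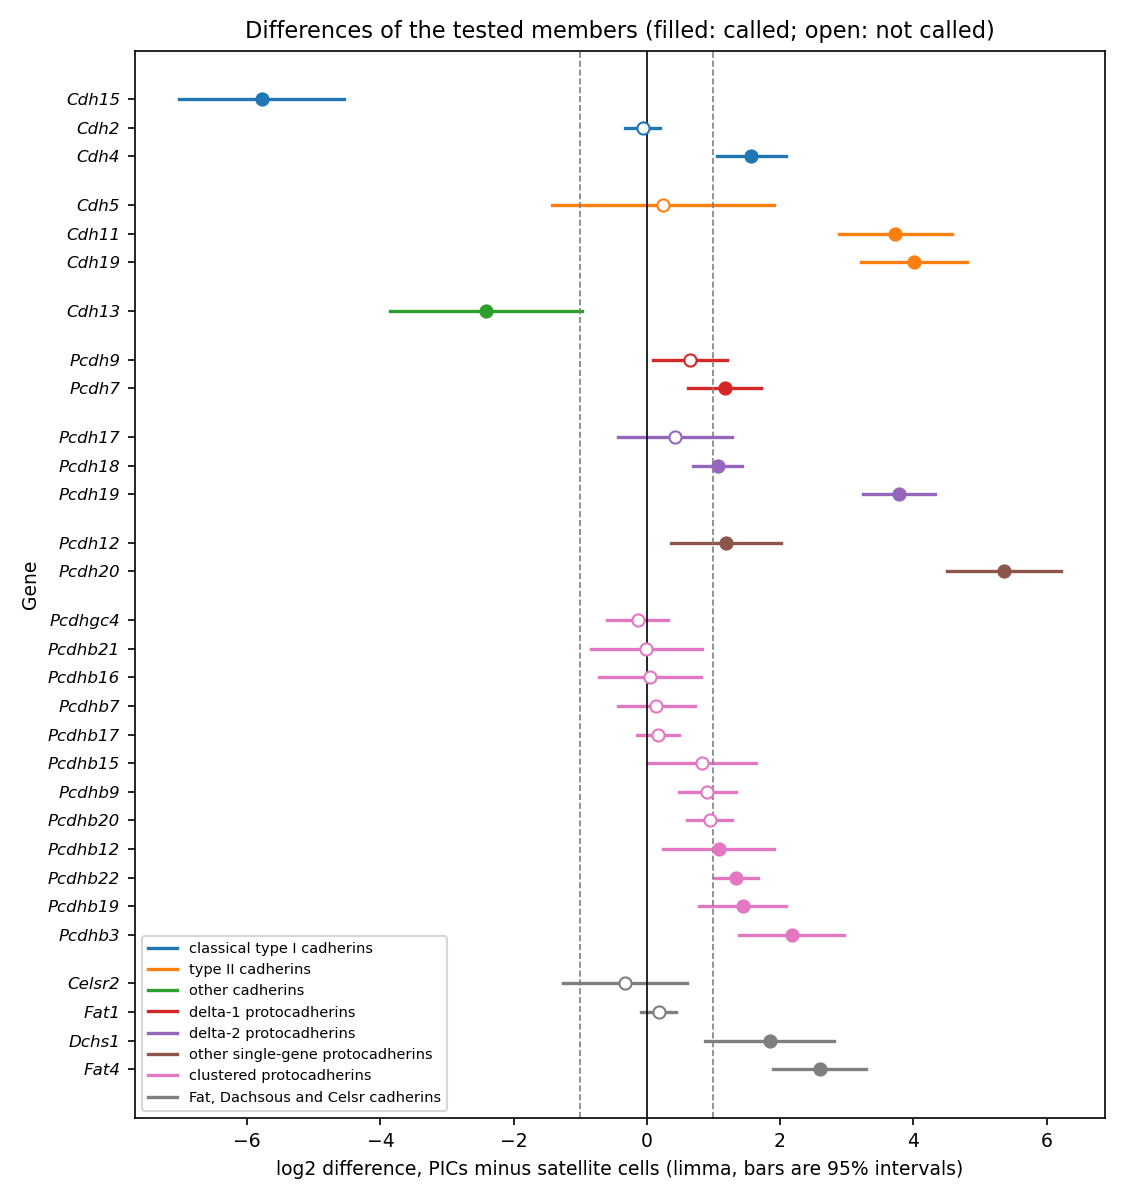
Log2 difference, PICs minus satellite cells, of the 30 tested members, with 95% intervals from limma, coloured by group. Filled points are called and open points are not, and dashed lines mark the size of 1 needed for a call in either direction. Cdh15 lies farthest to the left at -5.78, and the points of Cdh19, Pcdh20 and Pcdhb12 rest on satellite values at or under 4, so their sizes were not measured.

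The clustered protocadherins were represented by 22 beta genes and Pcdhgc4, and 12 of these 23 were tested. Beta genes lie in a row on 1 chromosome, each with its own promoter and a single coding exon, and their sequences are alike, so probe sets may also detect neighbours. Of 11 tested beta genes 4 were called higher in PICs, none was called higher in satellite cells, and 7 were without overlap with PICs above. Over all tested genes 16.7% were called for PICs and 64.6% were without overlap in either direction, so the share of beta genes without overlap is near that of all genes. At an adjusted p under 0.05 with no minimum size, the limma fit had 6 beta genes higher in PICs. In the other direction it had 0, also at an unadjusted p under 0.05. The median difference over the tested beta genes was 0.91, and the other 11 beta genes did not exceed 3.46 on any array. Of the 4 called, Pcdhb12 passed the filter through its PIC arrays alone and so had to differ. Pcdhb3 and Pcdhb19 also needed their PIC arrays to pass, so the beta counts and median include a choice in favour of PICs.

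Pcdhb3 had log2 intensities of 5.67, 5.75 and 6.57 in PICs and 4.25, 3.32 and 3.91 in satellite cells. The difference was 2.17 (1.39 to 2.96, adjusted p = 0.00163), with PIC replicate 3 the highest array and satellite cells around the low value level. Pcdhb22, at the end of the row, had 9.26, 9.28 and 9.39 in PICs and 8.13, 7.73 and 8.06 in satellite cells. Its PIC arrays were nearly equal, and the difference was 1.34 (1.00 to 1.67, adjusted p = 0.000374).

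Pcdhb19 had log2 intensities of 5.09, 5.46 and 5.39 in PICs and 4.46, 3.46 and 3.70 in satellite cells. The populations did not overlap, and the difference was 1.44 (0.78 to 2.10, adjusted p = 0.00447). With a pseudocount of 16 the difference was 0.85, under the size for a call, and without both arrays numbered 2 the adjusted p was 0.0636.

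Pcdhb12 was near the low value level, at 4.17, 4.09 and 4.64 in PICs and 3.91, 2.58 and 3.17 in satellite cells. No satellite array exceeded 4, and the level was at least 1.23-fold higher in PICs (adjusted p = 0.0356). The call was lost without the filter (adjusted p = 0.135), with a pseudocount of 16 (difference 0.48) and without any 1 array except satellite replicate 1 (adjusted p from 0.0673 to 0.0967). It was also lost without both arrays numbered 2 (adjusted p = 0.134) or both numbered 3 (adjusted p = 0.185).

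Pcdhb20 had log2 intensities of 8.30, 8.02 and 8.31 in PICs and 7.44, 7.23 and 7.13 in satellite cells. Pcdhb9 had 7.34, 7.59 and 7.94 in PICs and 6.66, 6.86 and 6.63 in satellite cells. In both genes all PIC arrays were higher, and the adjusted p was under the threshold (0.00167 and 0.00508), but the differences of 0.94 and 0.91 were under the size for a call. Pcdhb20 was called without PIC replicate 2 (1.04) or satellite replicate 1 (1.03) and without both arrays numbered 2 (1.02). Pcdhb9 was called without PIC replicate 1 (1.05) and without both arrays numbered 1 (1.02).

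Pcdhb15 had log2 intensities of 4.32, 4.70 and 5.58 in PICs and 4.25, 3.70 and 4.17 in satellite cells, with a difference of 0.83 (0.01 to 1.65, adjusted p = 0.0777). Its arrays did not overlap, and without PIC replicate 1 it was called (1.10, adjusted p = 0.0349). Pcdhb17 was high in both populations, between 8.69 and 8.96 in PICs and between 8.48 and 8.78 in satellite cells, with a difference of 0.17 (-0.15 to 0.49). Pcdhb7 differed by 0.15 (-0.43 to 0.72), Pcdhb16 by 0.05 (-0.71 to 0.82) and Pcdhb21 by -0.0050 (-0.84 to 0.83), each with overlapping arrays.

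A weaker probe set of Pcdhb16 differed by 0.80 without overlap and was not called. Pcdhgc4, the only gamma gene among the members, had log2 intensities of 7.55, 7.47 and 7.15 in PICs and 7.29, 7.44 and 7.85 in satellite cells. Its arrays overlapped, with a difference of -0.14 (-0.60 to 0.32, adjusted p = 0.563). A further 6 probe sets of the family with several symbols, which the rule left out, did not exceed 3.70.

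**Figure D4:**
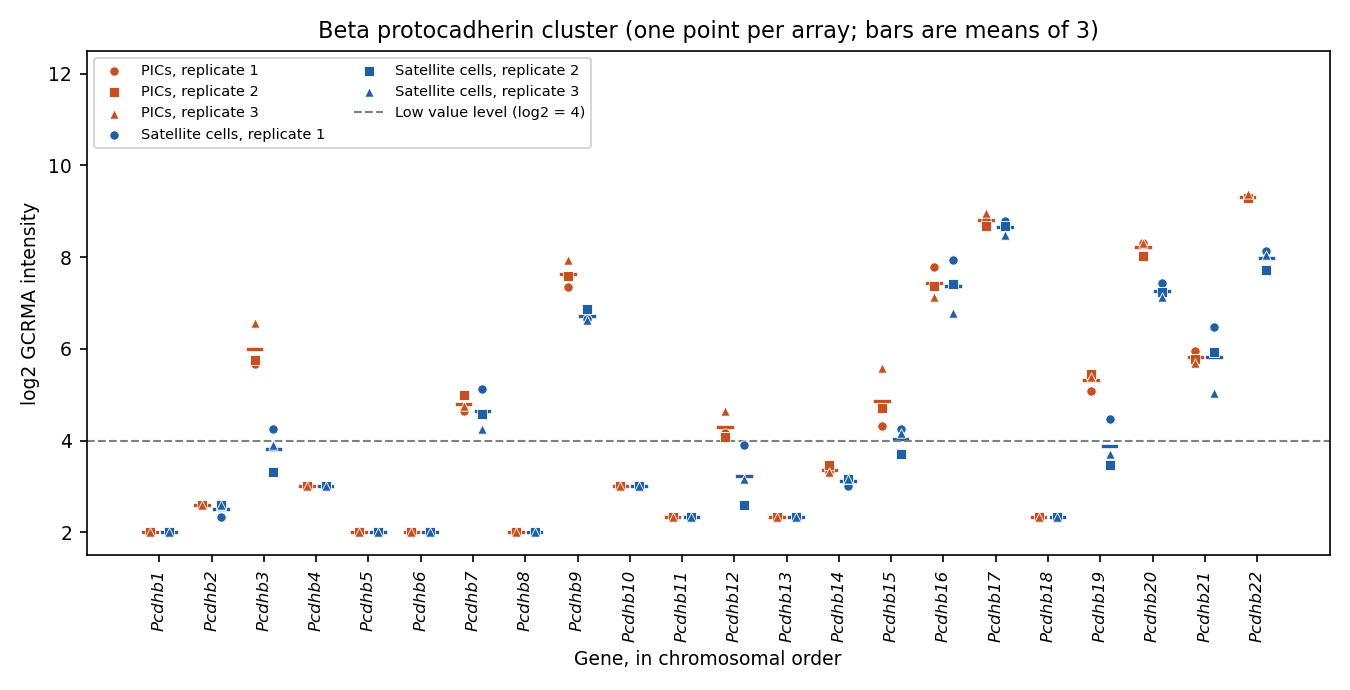
Log2 intensity of the 22 beta protocadherin genes in chromosomal order, with 1 point per array, bars at the means of 3 and a dashed line at the low value level of 4. Genes above that level occur alone and in the runs Pcdhb15 to Pcdhb17 and Pcdhb19 to Pcdhb22, and Pcdhb3, Pcdhb9, Pcdhb12, Pcdhb15, Pcdhb19, Pcdhb20 and Pcdhb22 have all PIC arrays above all satellite arrays.

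For 12 members at least 2 probe sets passed the filter. In all 12 the kept probe sets lay on the same side of 0, and in 10 they had the same call, the exceptions being Pcdh7 and Pcdh18. For Pcdh20 the satellite values of both probe sets were at low values, so the sizes of its differences were not measured.

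**Figure D5:**
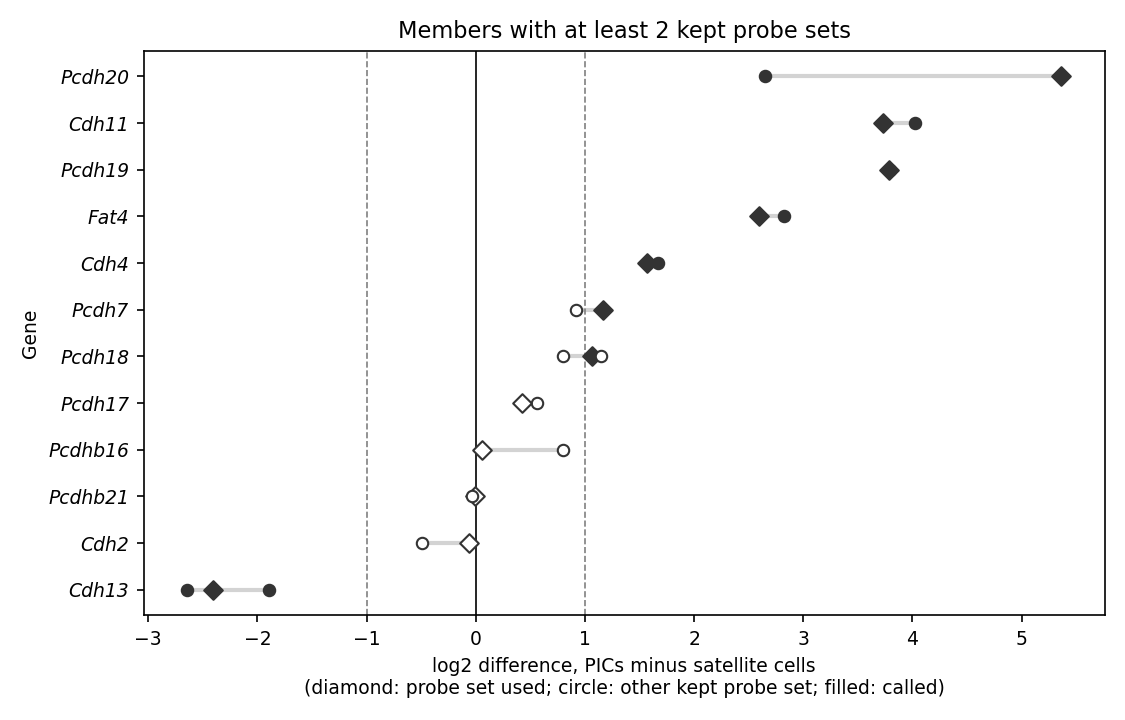
Log2 difference, PICs minus satellite cells, for each kept probe set of the 12 members with at least 2, with diamonds for the probe set used, circles for the others, and filled symbols for called probe sets. Dashed lines mark a difference of 1 in either direction, and every gene's probe sets lie on 1 side of 0.

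Genes of proteins that work with cadherins were counted in the same fit, in which 16.7% of all tested genes were called for PICs and 13.0% for satellite cells, with a median difference of -0.04. Catenins are the cytoplasmic partners of classical cadherins. The list of catenins and plakophilins, which also held the related genes Ctnnal1 and Ctnnbip1, had 9 tested genes, with a median difference of -0.78. Of these, 4 were called higher in satellite cells and none higher in PICs (limma). At an unadjusted p under 0.05, 0 of the 9 were higher in PICs. Ctnna2, the neural alpha-catenin, had 6.77, 6.93 and 7.15 in satellite cells and 3.00, 4.09 and 3.32 in PICs. It differed by -3.48 (-4.17 to -2.79, adjusted p = 0.00017), with PIC arrays around the low value level. Pkp4 differed by -1.77 and Arvcf by -1.71, both p120-related catenins, and Ctnnal1, alpha-catulin, by -1.46.

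The ubiquitous catenins differed by less. Ctnnb1, beta-catenin, differed by -0.15 (-0.43 to 0.13, adjusted p = 0.303) and Ctnna1, alpha-E-catenin, by -0.26 (-0.54 to 0.01, adjusted p = 0.0946). Ctnnd1, p120-catenin, differed by -0.78 (-1.23 to -0.33, adjusted p = 0.012), which passed the threshold on p but not the size.

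Of 11 tested genes of planar polarity and the Fat pathway, 5 were called in favour of PICs and 1 in favour of satellite cells, with a median difference of 0.94, beside 16.7%, 13.0% and -0.04 over all tested genes. Fjx1, a kinase of the secretory pathway known to modify Fat and Dachsous, had 8.13, 8.34 and 8.66 in PICs and 4.64, 3.81 and 5.25 in satellite cells. Its populations were far apart, with a difference of 3.81 (2.93 to 4.69, adjusted p = 0.000273). The core polarity genes Vangl1, Prickle2 and Prickle1 differed by 2.19, 2.06 and 1.61, and Lix1l by 1.18. Scrib, a scaffold of cell polarity, was called higher in satellite cells, with a difference of -1.22.

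Among 9 tested junction adaptors and nectins, Ablim1 and Magi3 were called higher in PICs, with differences of 1.63 and 1.53. Of 8 tested repressors of cadherin transcription, 2 were called, Twist1 and Twist2. Twist1 had 8.97, 9.15 and 8.97 in PICs and 5.13, 4.39 and 5.43 in satellite cells, a difference of 4.05. Twist2 did not exceed 3.32 on any satellite array and was at least 7.13-fold higher in PICs. It passed the filter through its PIC arrays alone, so it had to differ.

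Of 10 tested genes for the cleavage and turnover of cadherins, the metalloprotease genes Mmp14 and Adam15 were called higher in PICs, with differences of 2.26 and 1.43. Of 3 tested genes for other proteins with cadherin repeats, the calsyntenin gene Clstn2 was called higher in PICs, with a difference of 1.70. In the adaptor, repressor, cleavage and cadherin-repeat lists 0 genes were called higher in satellite cells (limma), and at an unadjusted p under 0.05 the numbers higher there were 0, 1, 0 and 0. None of the 7 desmosomal genes on the array passed the filter on low values.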

How the data were processed

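RNA of 3 PIC and 3 satellite cell samples was hybridised to 1-colour arrays, 1 sample to an array, from 200 ng of total RNA per the labels' protocols. The deposited values are linear intensities per probe set made with GCRMA, per the submitters' processing notes, with the version not given in the sources used here. They were deposited as whole numbers with a lowest value of 2, so low values move in coarse steps on the log2 scale. Scan dates were not used here, and the number of arrays limits the precision.

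Of 45037 probe sets, 34945 had 1 symbol in the platform annotation, 932 had several and 9160 had none listed, and only those with 1 symbol were used. RefSeq names of GRCm38.p6 replaced older symbols through gene numbers, which matched for 34741 of them. Log2 values were tested across 10855 genes with limma 3.58.1 in R 4.3.3 (lmFit and eBayes, two-sided), with Benjamini-Hochberg adjustment over all of them, and the tests were checked on simulated data. A fold written as at least a value sets the brighter mean against 4, because no array of the dimmer population exceeded that level. Every tested member is given with its values. Partner genes are those called, up to 4 for each list and direction, and Ctnna1, Ctnnb1 and Ctnnd1. Lix1l, Epcam, Krt19, S100b, Pax7, Pdgfra and other markers are named outside this rule, with their values already known. The members and lists were chosen with earlier results of these data known. Promoter sequences are from RefSeq, with entries for 26 of the 64 members.

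Both populations carry replicate numbers 1 to 3. Deviations from the population mean, correlated across genes, gave 0.623, 0.222 and 0.579 for arrays of equal number and -0.568 to 0.0363 for unequal numbers, so the pairing rests on the data, since the labels state none. Genes are not independent replicates. The labels do not say that the replicates came from separate animals, so p-values measure the spread between these samples.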

Additional observations from a re-analysis of the deposited data

How the results depend on the processing

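The call and direction held in every setting run for 13 of the 30 tested members, under 19 alternative settings, or 18 for Pcdhb3 and Pcdh9, which the stricter filter removed, 9 of them called (Cdh4, Cdh11, Cdh15, Cdh19, Fat4, Pcdh19, Pcdh20, Pcdhb3 and Pcdhb22) and 4 not called. A further 7 called members lost the call in at least 1 setting, 0 called members changed direction, and 4 members not called were called in at least 1 setting. The settings that leave out both arrays of 1 number were chosen after seeing the data. In all settings that leave out arrays, the filter and the choice of probe set still used all 6 arrays, so neither was rechecked. Of the 9 called in every setting, Cdh19 and Pcdh20 passed the filter through their PIC arrays alone, and Pcdhb3 needed its PIC arrays to pass. The number of members called higher in PICs, 14, ran from 12 to 14 with 1 array left out and from 10 to 16 over all settings. The number called higher in satellite cells, 2, stayed 2 with any 1 array left out and was 1 without the filter on low values and 1 without both arrays numbered 2; the cause was not tested. With the replicate number as a block, the paired fit called 14 and 2 members and changed no other call. Partner genes called higher in PICs, 12, ran from 12 to 14 and those in satellite cells, 5, stayed 5 with 1 array left out.

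Direction changed in 7 members that were not called, and the cause was not tested. With 1 array left out the difference ran from -0.0933 to 0.0071 for Cdh2, from -0.24 to 1.04 for Cdh5, from -0.63 to 0.0106 for Celsr2, from -0.24 to 0.33 for Pcdhb16, from -0.39 to 0.32 for Pcdhb21, from -0.0575 to 0.38 for Pcdhb7 and from -0.26 to 0.0219 for Pcdhgc4. Without both arrays numbered 2 it was 0.0161 for Cdh2, -0.13 for Cdh5 and 0.0673 for Pcdhb21, and without both numbered 1 it was 0.25 for Pcdhb21. Without both numbered 3 it was -0.0930 for Pcdhb16, -0.0352 for Pcdhb7 and 0.14 for Pcdhgc4. With array weights it was -0.0330 for Pcdhb16 and 0.0049 for Pcdhgc4. Signals at the floor limit what can be measured for the 34 members that were not tested.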

Other observations

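Of 9 tested pericyte and smooth muscle markers, 1 was called for PICs and 3 for satellite cells. Of the 3, Des is also on the list of satellite cell markers. The summed intensity of the list was 22500, 15983 and 9241 in PICs and 35124, 31643 and 32181 in satellite cells. Acta2 was its brightest gene on the satellite arrays, at log2 14.33, 14.36 and 14.24, and weighs most in those sums. Of 7 tested tenocyte markers, 1 was called for PICs and 2 for satellite cells. Over all tested genes 16.7% were called for PICs and 13.0% for satellite cells. Blood cell markers had 5 tested genes and 0 called (limma; also 0 at an unadjusted p under 0.05). Their summed intensity was highest on both arrays numbered 1, at 2917 in PICs and 3786 in satellite cells, against 118 to 345 on the other 4 arrays.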
